A study of Mus musculus with 8 samples.

Results

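The integrin subunits described here are 10 genes of the mouse: the alpha chains Itga3, Itga4, Itga5, Itga6 and Itgav and the beta chains Itgb1, Itgb3, Itgb4, Itgb5 and Itgb7. Every probe set that the platform's annotation assigns to 1 of these symbols was taken, which gave 10 of the 12393 genes named on the array, on 26 of its 22626 probe sets that are not the maker's controls. A probe set is a group of short probes that together report on 1 transcript. Each gene had between 1 and 6 probe sets.

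The samples were erythroid precursors, the primitive red cell precursors of the yolk sac, and epithelial cells of the same tissue. Both came from yolk sacs of FVB/N mice at embryonic day 9.5, with no genetic change or treatment named in the labels. There were 4 erythroid and 4 epithelial captures in 4 pairs, and each was hybridised to its own array. A capture pooled laser-cut cells from 2 to 4 yolk sacs of 2 litters, so a replicate is no single embryo, and each erythroid cell took 2 to 3 laser pulses against 1 for an epithelial cell.

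Integrins are receptors that span the cell membrane as a pair of an alpha and a beta chain and hold cells to the matrix or to other cells. The alpha chain largely sets which ligand is bound, and the tail of the beta chain connects to actin through talin and kindlin. In blood formation, Itga4 with Itgb1 is known for binding Vcam1 on the macrophages around which red cell precursors mature. In the yolk sac of the mouse, Itga5 with Itgb1, the main fibronectin receptor, is known for its part in vessel formation.

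All values are microarray signals, on which a median probe set reached 81.6 to 127. The background level of an array, the 95th percentile of 117 probe sets for genes of smell, taste, hair and beta-defensins, lay between 55.1 and 133. Of all probe sets, 48.7% to 57.7% lay above it. The number of arrays limits the precision. Gapdh, whose control probes read both transcript ends, gave 3' signals that exceeded the 5' signals 7.0 to 17.4 times in pairs 3 and 4, against 38.7 to 44.4 times in pairs 1 and 2. A higher value means relatively less signal from the 5' end, as shorter RNA would give, and RNA length itself was not measured here. Because the pairs split in this way, tested members are also given within these 2 sets. Marker lists were chosen with earlier results of these data known, so they are no independent check of the labels. In direction the markers went with the labels: 9 of 9 tested erythroid markers rose in the erythroid captures. Of the visceral endoderm, the yolk sac's outer epithelium, 10 of 10 tested markers fell. Each set also gave signal in the other capture. Summed erythroid markers read 29726 to 58294 in erythroid and 6148 to 13459 in epithelial captures. Summed endoderm markers read 15293 to 23514 in erythroid and 35420 to 81559 in epithelial captures. The part of mixed cells in the fold changes was not tested. Of 5 tested endothelial markers, Tek alone was called, as higher.

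The integrin subunits that could be tested, 5 of the 10 genes, did not differ detectably between erythroid and epithelial captures. Of the 26 probe sets, 9 were bright enough to be tested, from Itga3, Itga6, Itgav, Itgb1 and Itgb5. Of these 9, 0 were called higher and 0 lower with limma (adjusted p 0.239 or above), and 0 were under 0.05 before adjustment. Over all 11449 probe sets tested, 13.9% were called, 6.19% as higher and 7.69% as lower (709 and 881 probe sets; 455 and 1097 with arrays centred on their medians), and 29.9% were under 0.05 before adjustment. At the level of genes, 0 of 5 were called, against 14.9% of all 7191 genes. With so few tested, 0 calls are near these shares, so the counts of calls show little about the members. The median log2 fold change, erythroid minus epithelial, was 0.07 over the 9 probe sets and 0.02 over all those tested. The deposited signals of the captures overlapped for all 9 tested integrin probe sets, while 12.5% of all tested probe sets had no overlap. They overlapped for the 17 untested integrin probe sets too. In such pooled captures, fewer cells of a type and less RNA per cell cannot be told apart.

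A missed threshold does not show equal levels, so the intervals are given. The 95% interval of the change lay within 2-fold in either direction for 7 of the 9 integrin probe sets, and for 51.8% of all probe sets tested. The standard errors had a median of 0.26 on the log2 scale for the integrins and 0.26 for all tested probe sets.

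**Figure D1:**
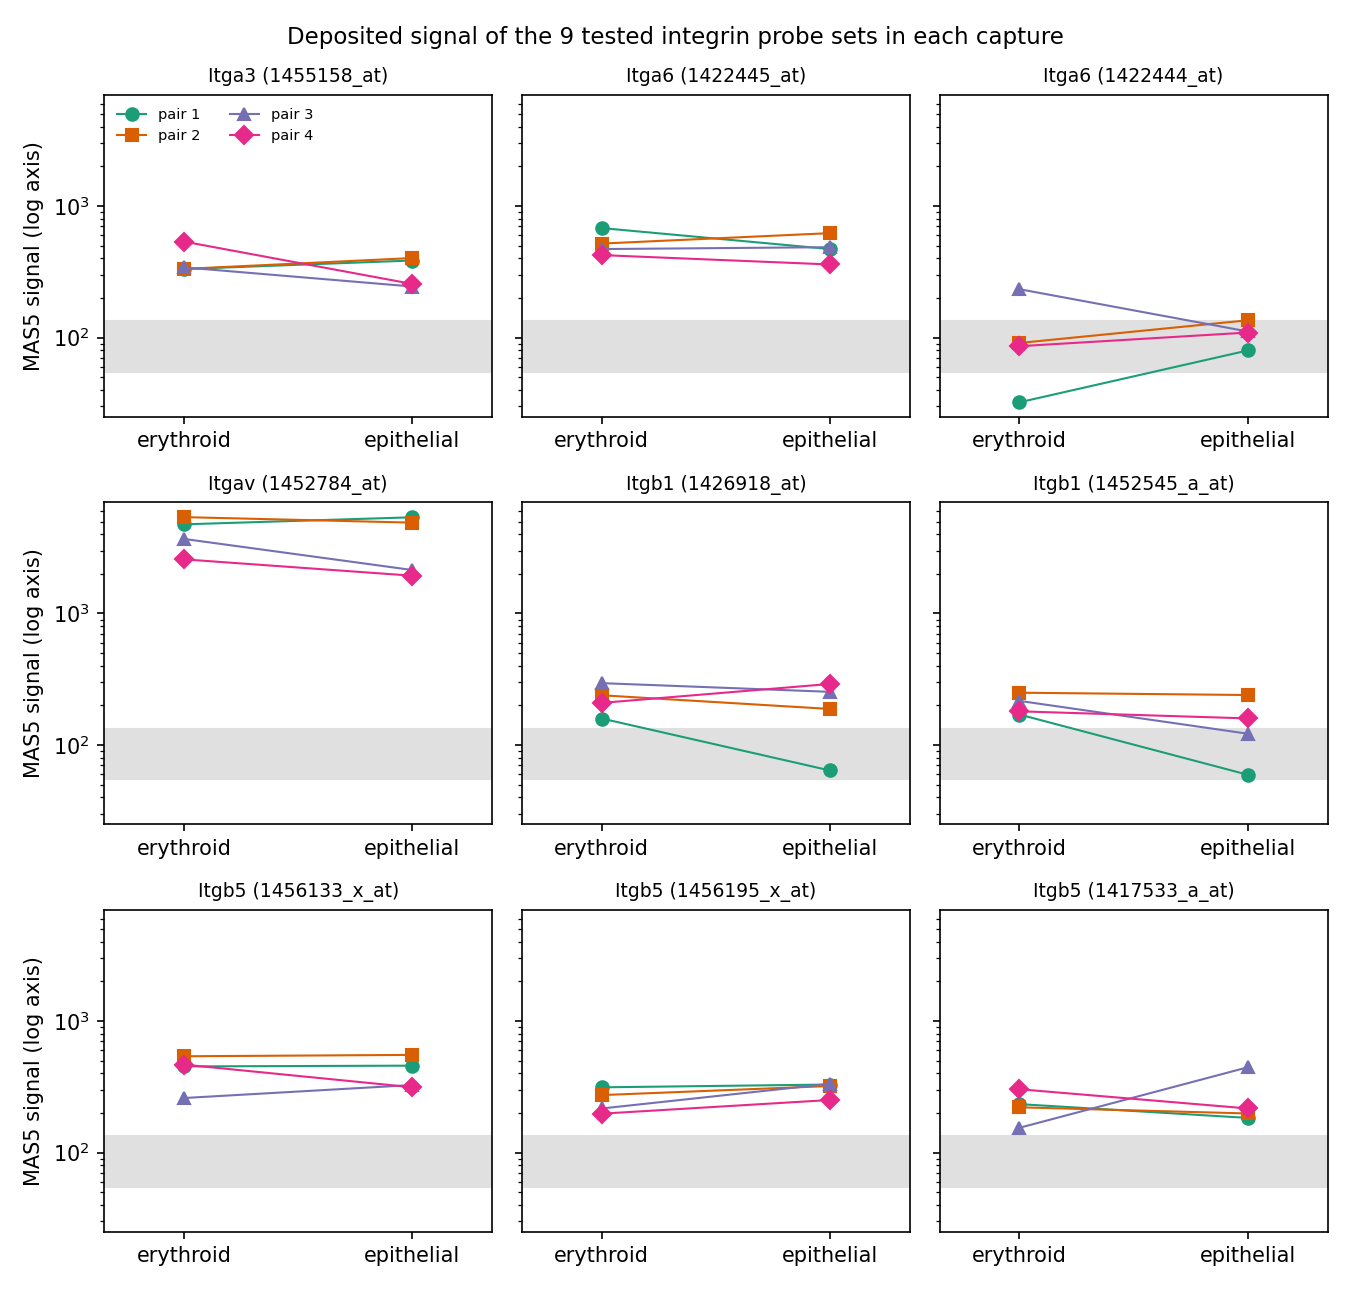
Deposited MAS5 signal (log axis) of the 9 integrin probe sets tested, with erythroid captures on the left and epithelial captures on the right of each panel. Each line joins the captures of 1 pair, and the grey band spans the background levels of the 8 arrays, 55.1 to 133; the groups overlap in every panel.

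Among the alpha chains, Itgav had the change with the smallest p. Itgav pairs with Itgb1, Itgb3 or Itgb5 and binds the RGD motif of vitronectin, fibronectin and the latent form of TGF-beta. On its probe set 1452784_at the erythroid captures of pairs 1 to 4 read 4759, 5398, 3686 and 2579, against 5383, 4904, 2140 and 1937 in the epithelial captures. All 8 signals were well above background, and both captures of pairs 1 and 2 read higher than all captures of pairs 3 and 4. The log2 fold change was 0.34 ± 0.18 (SE, n = 4 pairs; limma adjusted p = 0.239), with a 95% interval from -0.06 to 0.73, and 3 of 4 pairs had a value above 0.

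Within the sets of pairs, Itgav gave a log2 fold change of 0.68 for pairs 3 and 4, against -0.01 for pairs 1 and 2. A fit of pairs 3 and 4 alone called it higher (limma adjusted p = 0.0219), in which 12.2% of all probe sets tested were called higher. The test of the difference between the sets did not call Itgav (limma adjusted p = 0.255, unadjusted p = 0.0212) or any of the other 8 integrin probe sets, and it called 1.84% of all probe sets. Markers of mesenchyme and mesothelium, other cells of the yolk sac wall, moved in the same direction. Of 10 tested, 7 were called higher in the erythroid captures, and all 10 were above 0. Their median log2 fold change was 2.46 for pairs 3 and 4, against 0.36 for pairs 1 and 2. Their summed signal was 43350 to 61170 in erythroid and 8887 to 13460 in epithelial captures of pairs 3 and 4, and 39530 to 50170 in erythroid and 32510 to 35170 in epithelial captures of pairs 1 and 2. Of the 12 markers on the array, Des was at or below background on all arrays. The part of lower 5' signal or of other cells in the Itgav value was not tested.

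Itga3 and Itga6 carry the laminin-binding integrins, which anchor epithelia to basement membranes. Itga3, on probe set 1455158_at, read 332, 332, 341 and 536 in the erythroid captures of pairs 1 to 4, against 385, 402, 244 and 256 in the epithelial captures. The erythroid capture of pair 4 stood above the other 7, and the pairs split 2 to 2 in direction. The log2 fold change was 0.18 ± 0.26 (SE, n = 4 pairs; limma adjusted p = 0.689). Pairs 3 and 4 gave 0.59, against -0.23 from pairs 1 and 2.

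Itga6, on its brighter probe set 1422445_at, read 679, 518, 470.5 and 423 in the erythroid captures of pairs 1 to 4, against 471, 622, 486 and 359 in the epithelial captures. The widest gap within a pair was in pair 1, and 2 of 4 pairs were higher in erythroid cells. The log2 fold change was 0.07 ± 0.21 (SE, n = 4 pairs; limma adjusted p = 0.869), with a 95% interval from -0.41 to 0.54. Its dimmer probe set 1422444_at was above background on 1 of 4 erythroid and 3 of 4 epithelial arrays. There the log2 fold change was -0.40 ± 0.47, and the interval, from -1.43 to 0.64, leaves room for a change of over 2-fold. Pairs 3 and 4 gave 0.02 on 1422445_at and 0.07 on 1422444_at, against 0.11 and -0.86 from pairs 1 and 2.

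Itgb1 is the beta chain with the most partners and pairs with Itga3, Itga4, Itga5, Itga6 and Itgav of this set. On probe set 1426918_at its signals were 159, 239, 296 and 209 in the erythroid captures of pairs 1 to 4, against 64.1, 188, 254 and 291 in the epithelial captures. On 1452545_a_at they were 171, 250.04, 217 and 180.5 in the erythroid captures, against 59.5, 240.1, 122 and 159 in the epithelial captures. On both, the epithelial capture of pair 1 was the lowest and did not exceed its array's background. After normalisation the erythroid capture was the higher in 3 of 4 pairs on both, whereas the deposited signals of 1452545_a_at were higher in erythroid captures in 4 of 4 pairs. The log2 fold changes were 0.27 ± 0.32 and 0.47 ± 0.33 (SE, n = 4 pairs; limma adjusted p = 0.632 and 0.372). The upper ends of their intervals were 0.98 and 1.2. Pairs 3 and 4 gave -0.27 and 0.20 in the same order, against 0.80 and 0.74 from pairs 1 and 2.

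The 4 other probe sets of Itgb1 were too dim to be tested, and 3 of them lay below background on all 8 arrays. One of these, 1426919_at, read 27.7, 95.01, 32.8 and 38.7 in the erythroid captures of pairs 1 to 4, against 3.76, 41.4, 1.36 and 2.20 in the epithelial captures. The erythroid capture read higher in 4 of 4 pairs, but all 8 signals lay below their array's background level, so no fold change can be given. When every probe set was tested without a filter, 1426919_at had the smallest p of the integrin probe sets and was not called (limma adjusted p = 0.0706). The probe sets of Itgb1 gave different levels for 1 gene.

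Itgb5 pairs with Itgav and binds vitronectin. On its brightest probe set, 1456133_x_at, the signals were 452, 539, 259.8 and 466 in the erythroid captures of pairs 1 to 4, against 458, 552, 326 and 314 in the epithelial captures. The captures of pairs 1 and 2 were nearly equal, and those of pairs 3 and 4 differed in opposite directions. The log2 fold change was -0.02 ± 0.23 (SE, n = 4 pairs; limma adjusted p = 0.967), with an interval from -0.53 to 0.49. Both sets of pairs gave -0.02.

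The 2 other tested probe sets of Itgb5 differed in pattern. On 1456195_x_at the signals were 313, 273, 216 and 198 in the erythroid captures of pairs 1 to 4, against 329, 320.5, 333 and 251 in the epithelial captures. After normalisation this was the only tested integrin probe set with 1 direction in all 4 pairs, lower in the erythroid captures, at -0.39 ± 0.24 (SE, n = 4 pairs; limma adjusted p = 0.322). On 1417533_a_at the erythroid capture read lower in pair 3, 154 against 444, and higher in the other 3 pairs, giving -0.21 ± 0.35 (adjusted p = 0.729). Pairs 3 and 4 gave -0.64 on 1456195_x_at and -0.69 on 1417533_a_at, against -0.14 and 0.26 from pairs 1 and 2. The suffix x marks probe sets that can pick up related transcripts, so both x readings of Itgb5 are uncertain.

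**Figure D2:**
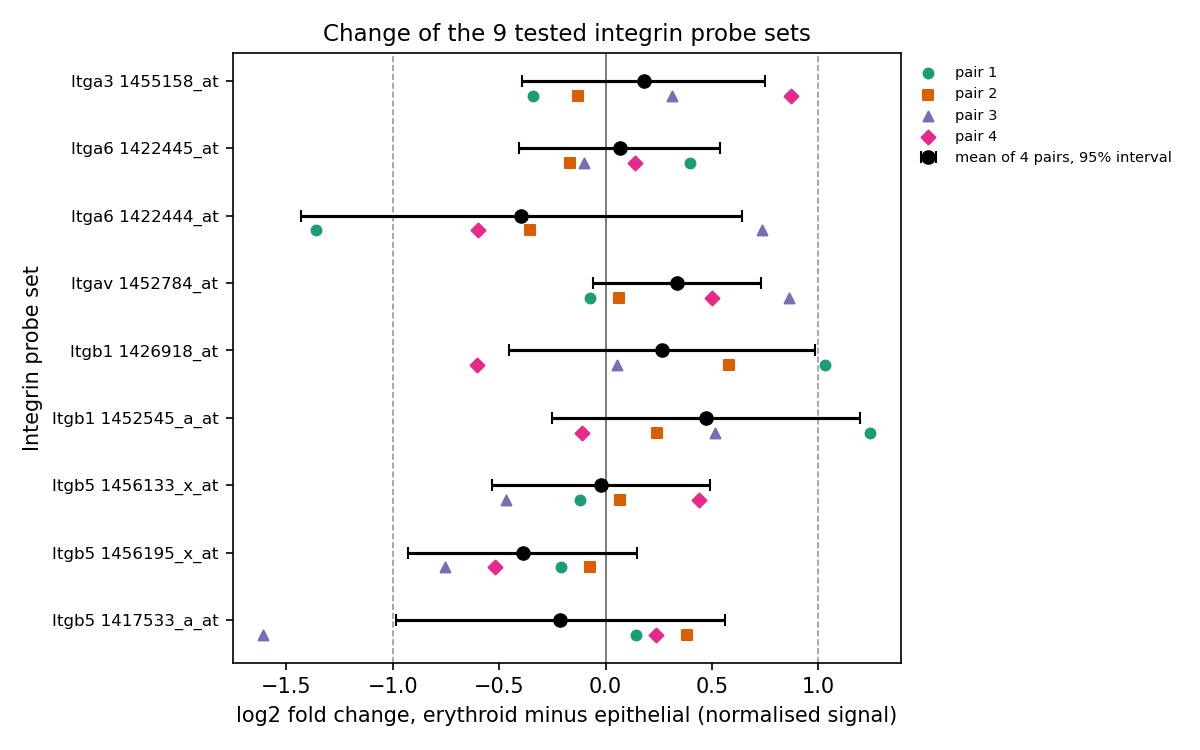
Log2 fold change (erythroid minus epithelial, normalised signal) of the 9 integrin probe sets tested, as the mean of 4 pairs with its 95% interval (black) and each pair's own value (coloured). Dashed lines mark 2-fold; every interval includes 0, and 7 of 9 lie within the dashed lines.

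The remaining 5 genes, Itga4, Itga5, Itgb3, Itgb4 and Itgb7, had no probe set bright enough to be tested. Of the 17 untested probe sets, 12 lay below background on all 8 arrays, and none of the 17 was above it on more than 3 arrays. Without a filter 0 of the 17 were called, where 560 of all 22626 probe sets were called higher and 715 lower. Before adjustment 3 of the 17 were under 0.05, all higher in the erythroid captures. They were 1421194_at of Itga4 and, below background on all 8 arrays, 1426919_at and 1426920_x_at of Itgb1. The matching share over all unfiltered probe sets was not computed. A dim reading on these arrays does not show that a gene is silent.

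Itga4 was the untested gene with the clearest split between captures. On its probe set 1421194_at the signals were 70.9, 143, 161 and 103 in the erythroid captures of pairs 1 to 4, against 71.6, 35.9, 9.63 and 35.5 in the epithelial captures. Background was exceeded on 3 of 4 erythroid arrays and on 0 of 4 epithelial arrays, and the captures of pair 1 were nearly equal. Set against the lowest signals above background, the mean of the erythroid captures came out 1.1-fold higher, where both means are taken on the log2 scale after normalisation. That value has no error attached, and the erythroid capture of pair 1 was itself at 0.73 of its background level. Without a filter the adjusted p of limma was 0.234. The 2 other probe sets of Itga4 lay below background on all arrays.

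Itga5, the alpha chain of the fibronectin receptor, had 2 probe sets. On 1423268_at the signals were 28.0, 3.71, 127 and 9.15 in the erythroid captures of pairs 1 to 4, against 14.6, 15.0, 61.7 and 15.6 in the epithelial captures. It was above background on the erythroid array of pair 3 alone, and in that pair both captures read higher than in the others. The other probe set, 1423267_s_at, lay below background on all arrays.

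Itgb7, a beta chain of white blood cells that pairs with Itga4, read 21.0, 7.92, 188 and 28.3 in the erythroid captures of pairs 1 to 4, against 7.45, 169, 103 and 36.9 in the epithelial captures. It exceeded background on 1 erythroid and 2 epithelial arrays, in no common direction. Itgb3, known from platelets and bone-resorbing cells, read 7.76, 14.0, 14.6 and 14.5 in the erythroid captures of pairs 1 to 4, against 7.07, 19.9, 14.4 and 7.64 in the epithelial captures. Itgb4, which pairs with Itga6 in the hemidesmosomes of epithelia, read 4.37, 5.29, 66.8 and 4.69 in the erythroid captures of pairs 1 to 4, against 4.54, 7.03, 3.83 and 16.99 in the epithelial captures. Itgb3 and Itgb4 were thus at or below background on all 8 arrays.

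**Figure D3:**
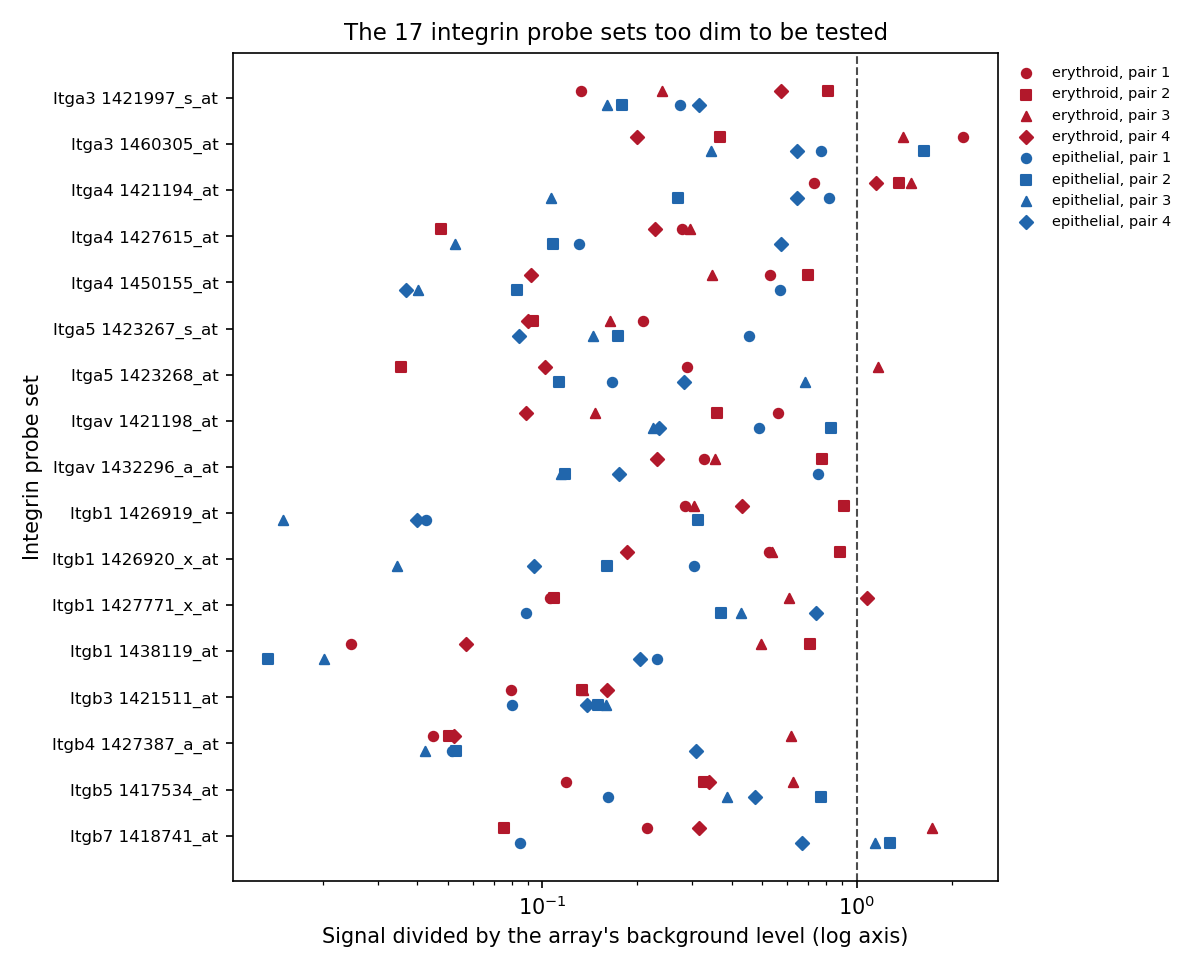
Signal of the 17 untested integrin probe sets divided by the background level of the array (log axis), for each erythroid (red, upper row) and epithelial (blue, lower row) capture, with a symbol for each pair. Most points lie left of the dashed line at 1; for Itga4 1421194_at, 3 erythroid and 0 epithelial captures lie right of it.

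Further probe sets of the tested genes were dim as well. Itgav had 2, with signals from 7.96 to 110 on all arrays, below background throughout. The 2 untested probe sets of Itga3 reached at most 217, and 1460305_at exceeded background on 2 erythroid and 1 epithelial arrays. The untested probe set of Itgb5, 1417534_at, read 11.6 to 102 and stayed below background. Probe sets of 1 gene therefore differed in whether they were above background at all, as for Itgav.

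Of the other integrin subunits of the mouse, 11 of 16 listed genes were on the array, and 8 of these lay below background on all arrays. The alpha chains Itga2b, known from platelets, and Itga9 were tested, and 0 of the 2 were called by limma, with 0 under 0.05 before adjustment. Itga2b, the partner of Itgb3, gave -0.04 ± 0.45 (SE, n = 4 pairs; limma adjusted p = 0.966). Itga9, a partner of Itgb1, gave 0.81 ± 0.66 (adjusted p = 0.453).

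The genes for proteins that integrins bind split in direction. Of 34 ligand genes, 21 were tested. In erythroid captures 4 of these rose and 4 fell, where 14.9% of all genes were called in either direction, at a median log2 fold change of 0.06 (all genes tested, -0.01). The fibrinogen chain Fgb fell by 2.01 ± 0.27, Fgg fell by 1.54 ± 0.22, Fga fell by 1.48 ± 0.25, and Icam1, a ligand of white cell integrins, fell by 1.06 ± 0.24 (SE, n = 4 pairs; limma adjusted p = 0.00181 to 0.0156). The fibrinogen genes are known as products of the visceral endoderm, and all 10 tested endoderm markers fell. The part of endoderm cells in the fibrinogen values was not tested. Icam1 lost its call without replicate 4 (adjusted p = 0.115).

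Those that rose were Ltbp1, which holds latent TGF-beta, by 1.87 ± 0.50, Icam4 by 1.66 ± 0.30, the collagen gene Col1a1 by 1.63 ± 0.39 and the basement membrane gene Nid1 by 1.40 ± 0.36 (SE, n = 4 pairs; limma adjusted p = 0.00606 to 0.032). Icam4 is a surface protein of red cell precursors that binds Itgav integrins on macrophages. Its mean signal was 578 in the erythroid captures, against 147 in the epithelial ones, and it was higher in 4 of 4 pairs. Its call ended without replicate 4 (adjusted p = 0.0521). The calls of Ltbp1, Col1a1 and Nid1 ended without replicate 3 (adjusted p = 0.097 to 0.143) and without replicate 4 (0.118 to 0.16), that of Nid1 also without replicate 2 (0.0764) and that of Ltbp1 also with no filter (0.0523). The count of ligands that rose was 1 without replicate 3, 0 without replicate 4 and 3 with no filter. The mesenchyme markers above moved with these genes, and their part in the values was not tested.

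The best-known ligands of the integrins measured here were not called. Fn1, fibronectin itself, had a mean signal of 4015 in the erythroid captures, against 4053 in the epithelial ones, at a log2 fold change of 0.05 ± 0.21 (limma adjusted p = 0.892). Vcam1, the ligand of Itga4 integrins, gave 0.51 ± 0.58 (adjusted p = 0.598). Its mean signals, 127 in the erythroid and 81.4 in the epithelial captures, lay within the range of the arrays' background levels (55.1 to 133). Among basement membrane chains, Lamb1 gave -0.07 ± 0.14 (adjusted p = 0.79), Lama5 0.05 ± 0.28 (adjusted p = 0.927) and Col4a1 0.09 ± 0.15 (adjusted p = 0.714). Vtn, vitronectin, was at or below background on all arrays.

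Membrane proteins that associate with integrins gave 1 higher and 3 lower of 10 tested, where 14.9% of all genes were called, at a median of 0.27. The 3 that fell are among 5 tested tetraspanins, which gather integrins into patches of the membrane: Cd82 fell by 1.38 ± 0.39, Cd9 fell by 1.09 ± 0.26 and Cd151, the partner of the laminin-binding integrins, fell by 0.91 ± 0.15 (SE, n = 4 pairs; limma adjusted p = 0.0397, 0.0202 and 0.00355). Cd151 had a mean signal of 2992 in the erythroid captures, against 5837 in the epithelial ones, and fell in 4 of 4 pairs. It was read from a probe set with the suffix x, so this reading is uncertain, as with the x readings of Itgb5. Leaving out x, s and a probe sets was not among the alternatives run for Cd151. Its call held in all 7 alternatives run for it, whereas those of Cd9 and Cd82 ended without replicate 3 and without replicate 4 (adjusted p = 0.0947 to 0.211), and that of Cd82 with no filter on low signals too (0.0584). The other tested tetraspanins were not called, with Cd81 at 0.16 ± 0.21 (adjusted p = 0.658) and Tspan4 at 0.56 ± 0.24 (adjusted p = 0.154). Cav1, of caveolae, rose by 0.97 ± 0.27 (adjusted p = 0.0374), with no call without replicate 2, 3 or 4 (adjusted p = 0.0851 to 0.171) or with no filter (0.0881).

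Of the 4 tested genes of the hemidesmosome, Cd151 was the only one called, where 14.9% of all genes were called. With so few tested, the count shows little about the list. Plec, which ties Itgb4 to keratin, was at -0.18 ± 0.23 (limma adjusted p = 0.65). The 2 other listed genes, Krt14 and Col17a1, were at or below background on all arrays.

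Among 22 tested genes for the activation of integrins and their link to actin, 2 rose and 1 fell, at a median of -0.11. These 3 of 22 are near the 14.9% called over all genes, so the count shows nothing about the list, and the genes are given singly. Fermt3, the kindlin of blood cells, rose by 1.92 ± 0.29 (SE, n = 4 pairs; limma adjusted p = 0.00301), to a mean of 802 in the erythroid captures, against 196 in the epithelial ones. It was higher in 4 of 4 pairs, with log2 differences of 2.47 and 2.63 for pairs 3 and 4, against 1.53 and 1.04 for pairs 1 and 2. The call of Fermt3 held in all 7 alternatives run for it. Its probe set has the suffix s, and leaving out x, s and a probe sets was not among these alternatives. Fermt2, the kindlin of most other cells, was at -0.29 ± 0.15 (adjusted p = 0.214).

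Fermt3 is used by platelets and white cells too. Of 7 tested megakaryocyte and platelet markers, 3 were higher in the erythroid captures, with sums of signal of 5307 to 19106 in the erythroid captures, against 1821 to 3086 in the epithelial ones, and Gp9 was below background on all arrays. Of 5 tested white cell markers, Laptm5 was higher and Lcp1 lower, with sums of signal of 2352 to 3286 in the erythroid captures, against 2218 to 2766 in the epithelial ones, and Cd68 and Itgam were below background on all arrays. The part of these cells in the Fermt3 value was not tested.

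Rap1a, a small GTPase that switches integrins on through talin, rose by 0.84 ± 0.14 (limma adjusted p = 0.00355), to a mean of 7441 in the erythroid captures, against 4267 in the epithelial ones, with no call when arrays were centred on their medians (0.60, adjusted p = 0.103). Tns1, a tensin that binds beta chain tails, fell by 1.12 ± 0.30 (adjusted p = 0.0337), with no call without replicate 2, 3 or 4 (adjusted p = 0.0758 to 0.194) or with no filter (0.0535). Talin itself, Tln1, was at -0.22 ± 0.25 (adjusted p = 0.603), and the adaptor Lims1 at -0.01 ± 0.19 (adjusted p = 0.979).

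A further list held genes of the signalling that follows integrins: kinases, GTPases and the adaptors and regulators that work with them. Of 15 tested, 0 were called in either direction by limma and 0 were under 0.05 before adjustment, at a median of -0.02. Over all genes tested 14.9% were called. Src was at -0.02 ± 0.27 (limma adjusted p = 0.972).

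**Figure D4:**
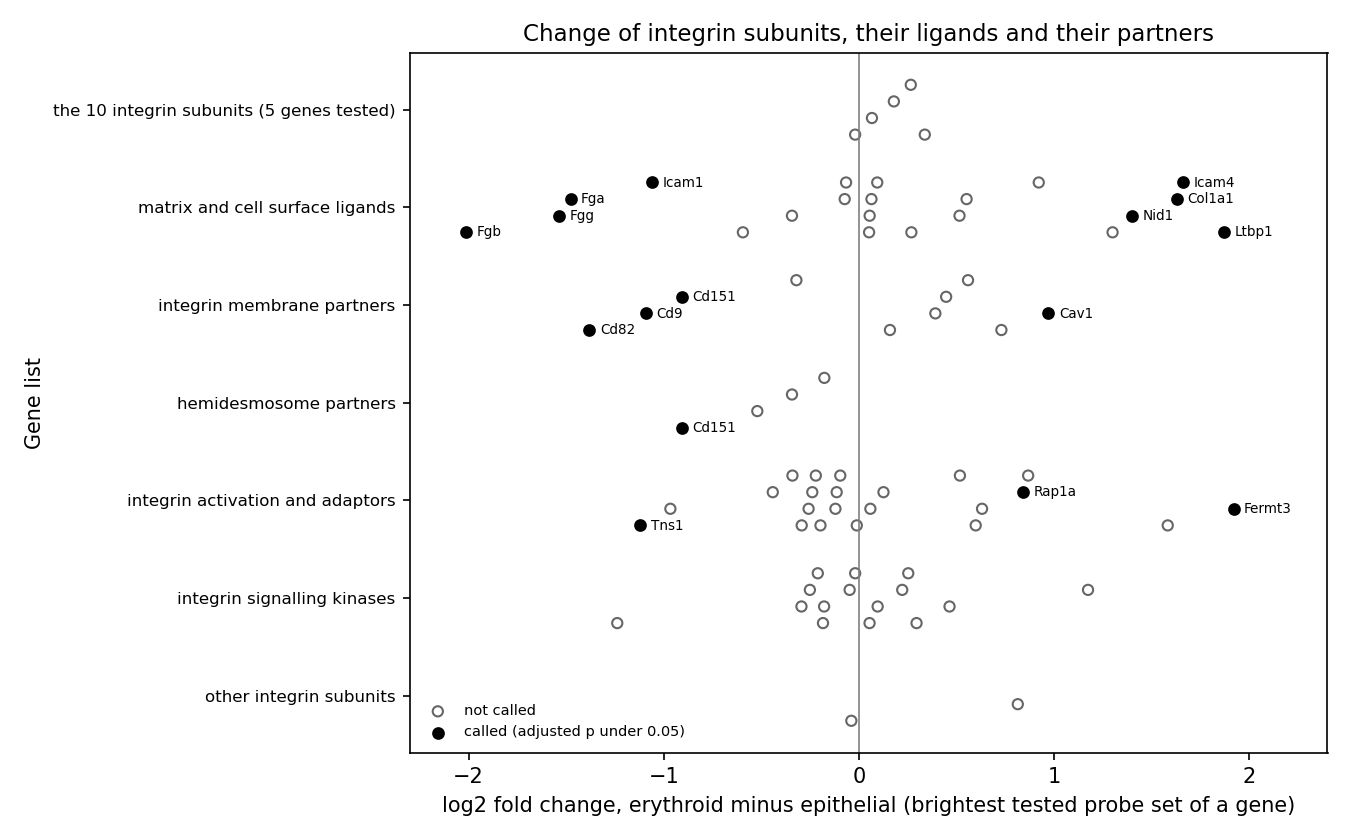
Log2 fold change (erythroid minus epithelial) of the integrin genes tested and of 6 lists of related genes, each gene as 1 point on its brightest tested probe set, filled where called by limma. The 5 integrin genes lie between -0.02 and 0.34 with 0 called, while the ligands hold 4 called genes on either side.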

How the data were processed

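The deposited table holds 1 MAS5 signal, an intensity on a linear scale, per probe set for each of 8 Affymetrix mouse arrays. Per the submitters' processing notes, the authors used GCOS, MAS5 and affy, with versions not given in the sources used here. The trimmed mean was 500 on every array.

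The 10th percentile of all values (8.14) was added before log2. Array medians then spanned 0.59, and arrays were quantile normalised in R 4.3.3 with limma 3.58.1. Testing was limited to probe sets with signals at or above the median of the array on 4 or more of the 8 arrays. The fit (lmFit and eBayes with a variance trend) had terms for pair and cell type, with two-sided tests, p-values adjusted by Benjamini-Hochberg across the 11449 and called under 0.05. The procedure was run on simulated data with independent noise and planted changes, as a check of the fold changes it returns. The difference between the sets of pairs was not part of that simulation.

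The pair term rests on the labels, by which both captures of a pair came from the same slides. Deviations from group means correlated at 0.44, 0.34, 0.32 and 0.54 within pairs 1 to 4. A replicate number is a pair number.

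Gene symbols came from the platform's annotation, updated through gene identifiers: 20380 probe sets had 1 gene, 691 several and 1555 none. A gene was read from its brightest tested probe set. The members and lists were chosen with earlier results of these data known. All members were named, with the 3 called genes of largest change and the tested gene of smallest change in each list. Named outside this rule were Col1a1, Nid1, Fga, Fgg, Icam1, Fn1, Vcam1, Lamb1, Col4a1, Vtn, Fermt2, Tln1, Itga9, Des, Gp9, Cd68, Itgam, Laptm5, Lcp1, Tek, Tspan4, Col1a2, Krt14 and Col17a1. The alternatives run were other offsets, scalings, filters, variance models and pairs.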

Additional observations from a re-analysis of the deposited data

Results flagged for a closer look

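Single captures stood apart from the other 3 of their group for 3 integrin probe sets. Itga3 (1455158_at) read 536 in the erythroid capture of pair 4, against 332 to 341 in the other erythroid captures. Itgb5 read 444 on 1417533_a_at in the epithelial capture of pair 3, against 183 to 216 in the others. On 1456195_x_at, Itgb5 read 251 in the epithelial capture of pair 4, against 320.5 to 333. Among related genes, Cd82 read 368 in the erythroid capture of pair 3 (216 to 239.5 in the others), Src 329 in the epithelial capture of pair 3 (201.5 to 223) and Fgg 2896 in the erythroid capture of pair 2 (1629 to 1789). These are 6 of 60 groups examined, and chance flags about 1 group in 20.

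In the interaction test of limma, 0 of the 9 integrin probe sets were called, where 1.84% of all probe sets tested were called. With so few tested, 0 calls are near that share. Of 73 tested genes of the 6 related lists, 6 were called, so their change differed between pairs 3 and 4 and pairs 1 and 2. The difference was 2.80 for Col1a2, a collagen gene (2.70 in pairs 3 and 4 and -0.10 in pairs 1 and 2, adjusted p = 0.000274), 2.31 for Col1a1 (2.78 in pairs 3 and 4 and 0.47 in pairs 1 and 2, adjusted p = 0.00141) and 2.73 for Ltbp1 (3.24 and 0.50 in the same order of pairs, adjusted p = 0.0211). It was -2.07 for Cd82 (-2.42 and -0.34, adjusted p = 0.0242), -1.34 for Fgb (-2.68 and -1.34, adjusted p = 0.0415) and -1.13 for Fgg (-2.10 and -0.97, adjusted p = 0.0374).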

How the results depend on the processing

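In 14 of 15 alternatives 0 integrin probe sets were called higher, and in all 15 of them 0 were called lower; the exception was the fit of pairs 3 and 4 only, with 1 probe set and 1 gene (Itgav). The replicate block (pair term) is part of the fit reported, and without it 160 probe sets of the array were called higher and 285 lower, with 0 integrins. All-array counts also moved with arrays centred on their medians (455 higher), no variance trend (179 and 339), pairs 1 and 2 only (543 lower), pairs 3 and 4 only (1402 and 1457) and x, s and a probe sets left out (376 and 520, from fewer probe sets). Leaving out 1 replicate gave 202 to 690 higher and 332 to 829 lower, the fewest without replicate 4.

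Uncalled integrin values changed sign as follows. Itga3 was -0.23 in pairs 1 and 2, Itga6 0.067 (1422444_at) in pairs 3 and 4 and -0.073 (1422445_at) with median centring, Itgav -0.0052 in pairs 1 and 2, Itgb1 (1426918_at) -0.27 in pairs 3 and 4, and Itgb5 0.26 (1417533_a_at) in pairs 1 and 2 and 0.047 (1456133_x_at) with the deposited scaling. Leaving out 1 replicate gave -0.053 to 0.35 for Itga3, -0.043 to 0.14 for Itga6 (1422445_at), and -0.41 to 0.25 (1417533_a_at) and -0.17 to 0.13 (1456133_x_at) for Itgb5.

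Of the pathway counts, activators were 4 higher with the deposited scaling and 0 lower with no filter, membrane partners 0 higher with no filter. Leaving out 1 replicate gave 0 to 6 ligands higher, 0 to 1 activators lower, and 0 to 1 membrane partners higher and 1 to 3 lower. Uncalled pathway genes that changed sign were Src (0.078) and Itga2b (0.11) with the deposited scaling and Cd81 (-0.077) with median centring. Leaving out 1 replicate gave -0.20 to 0.16 for Src, -0.34 to 0.62 for Itga2b, -0.023 to 0.38 for Cd81, -0.16 to 0.078 for Lims1 and -0.055 to 0.23 for Lama5. The causes of these shifts were not tested. Of 7 alternatives to the interaction test, chosen after seeing the data, all 7 called 0 integrin probe sets.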
